A study of Homo sapiens with 24 samples.

Results

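The transcriptional response of oxaliplatin-resistant HCT116 oxpl-R cells to oxaliplatin was examined in 6 of the 24 RNA-seq libraries of the series. They were chosen by their labels as the 3 libraries of HCT116 oxpl-R cells kept with 25 µM oxaliplatin for 24 h and the 3 libraries of untreated HCT116 oxpl-R cells, with no doxycycline in either group. HCT116 is a human colorectal carcinoma line with functional p53. HCT116 oxpl-R is a single derivative of it, obtained by the authors through repeated short pulses of a high dose of oxaliplatin and described by them as hypotetraploid. All cells of the series, controls included, carry a doxycycline-inducible TetOn-E1A transgene for the adenoviral E1A protein, which was not induced in these 6 cultures. Parental HCT116 cells with and without the same dose of oxaliplatin (3 and 3 libraries) and HCT116 oxpl-R cells given 0.5 µg/mL doxycycline to induce E1A, with and without oxaliplatin (3 and 3), serve for comparison, and neither shares a library with the 6. The labels call the replicates biological, and nothing states separate passages or days, so p-values measure the spread between these cultures.

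Oxaliplatin is a platinum compound that forms adducts and crosslinks on DNA. In cells with functional p53, DNA damage stabilizes this transcription factor, which activates genes of cell-cycle arrest (above all CDKN1A, encoding the CDK inhibitor p21), of its own negative feedback (MDM2), of apoptosis and of DNA repair. By inhibiting CDKs, p21 keeps the RB family of pocket proteins bound to E2F factors, and through them the DREAM complex silences E2F-controlled genes of DNA replication and also genes of the G2 and M phases whose promoters hold a CHR element. Platinum crosslinks are removed by nucleotide excision repair and by the Fanconi anemia and homologous recombination pathways.

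The promoters of the 3 most significantly decreased genes of the G2 and M phase list with a CHR in this window, and of the corresponding 3 genes of the S phase list with an E2F motif, are shown because these lists had the most decreased members. Each sequence covers 130 bases before to 10 bases after the annotated start on the strand of the gene (RefSeq, GRCh38.p14). Capitals mark the CHR (TTTGAA or TTCGAA) in the first 3 and the E2F motif (TTTCCCGC, TTTGGCGC or TTTCGCGC) in the last 3, searched on both strands.
CDC20 (chr1:43358851-43358990, plus strand): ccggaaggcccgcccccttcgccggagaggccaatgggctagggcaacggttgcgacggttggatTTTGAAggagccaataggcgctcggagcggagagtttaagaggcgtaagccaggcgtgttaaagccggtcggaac
CCNB2 (chr15:59105016-59105155, plus strand): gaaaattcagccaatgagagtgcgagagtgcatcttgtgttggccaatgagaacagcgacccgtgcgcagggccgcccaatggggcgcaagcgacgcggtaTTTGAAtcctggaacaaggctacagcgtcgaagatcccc
CDCA8 (chr1:37692386-37692525, plus strand): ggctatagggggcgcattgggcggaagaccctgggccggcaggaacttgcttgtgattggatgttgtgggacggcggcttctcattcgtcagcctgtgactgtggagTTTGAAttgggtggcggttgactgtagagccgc
E2F1 (chr20:33686376-33686515, minus strand): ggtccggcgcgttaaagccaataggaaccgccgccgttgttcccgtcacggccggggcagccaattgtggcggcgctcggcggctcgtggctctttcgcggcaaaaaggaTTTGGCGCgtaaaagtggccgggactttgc
CDT1 (chr16:88803659-88803798, plus strand): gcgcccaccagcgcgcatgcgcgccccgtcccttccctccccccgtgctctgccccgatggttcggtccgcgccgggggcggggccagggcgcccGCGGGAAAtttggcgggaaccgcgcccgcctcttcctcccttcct
MCM7 (chr7:100101388-100101527, minus strand): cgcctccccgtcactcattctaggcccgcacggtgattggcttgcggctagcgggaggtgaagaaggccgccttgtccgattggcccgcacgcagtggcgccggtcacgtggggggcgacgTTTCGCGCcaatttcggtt
CDC20 activates the anaphase-promoting complex, CCNB2 encodes cyclin B2, and CDCA8 encodes borealin of the chromosomal passenger complex. E2F1 is the activator of S phase genes, CDT1 loads the replicative helicase onto origins, and MCM7 is a subunit of that helicase. In CCNB2 and CDCA8 the CHR begins 29 and 23 bases before the start, and in CDC20 65 bases before it. The CCAAT box (CCAAT on either strand, not in capitals here) occurs 2 times in the CDC20 window, 3 times in CCNB2 and 3 times in CDCA8, where 1 match overlaps the CHR, and 1 of the 3 matches in MCM7 overlaps its E2F motif.

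Counts per gene are estimated counts, scaled by TMM to a common library size and called normalized counts. The count table of these 6 libraries summed to 24837986 to 29264910 counts for genes up to SETP6 in alphabetical order, and genes after SETP6 come from a second table. Mitochondrially encoded transcripts took 14.4%, 11% and 14.2% of the counts in the untreated libraries and 1.38%, 15.4% and 19.7% after oxaliplatin, so that oxaliplatin replicate 1 stands apart. The mean share was 13.2% ± 1.91 (SD, n = 3) untreated and 12.2% ± 9.60 (SD, n = 3) treated (exact permutation test, two-sided, p = 1.00, where 3 against 3 cannot go below 0.10), and 17.6% in the treated group without replicate 1. Pearson correlations of log2 values were at least 0.979 within the untreated group and 0.963 to 0.972 within the treated group. Between the groups they were 0.953 to 0.974, so that the treated libraries were no closer to each other than to some untreated ones. The summed colorectal epithelial markers held 237818, 211797 and 231789 normalized counts untreated and 476800, 366637 and 324659 treated, without overlap, and KRT8, a keratin with a large part of these counts, 127663, 114043 and 116459 untreated and 242633, 201610 and 166212 treated. EPCAM, the epithelial adhesion molecule, held 8288, 8886 and 6064 normalized counts untreated and 7544, 6827 and 5236 treated. The summed markers of fibroblasts, endothelium and blood cells reached 525, 864 and 575 untreated and 907, 505 and 478 treated over 17 detected genes, with 3 at 0. COL1A2, a fibroblast collagen, was the only one called, with 17.4, 219.6 and 10.9 against 0.939, 1.01 and 4.4, and not with genes kept by filterByExpr, in the second table, without untreated replicate 2 or without oxaliplatin replicate 1.

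A small part of the transcriptome of the resistant cells was called as changed by oxaliplatin, in both directions to a similar extent. Of 19780 genes tested, 413 rose (2.09%) and 424 fell (2.14%) at an adjusted p below 0.05 (edgeR quasi-likelihood test, Benjamini-Hochberg). The number depended on the fit, with 638 and 670 called by DESeq2 and 928 and 1102 with the replicate number as a block. Of the 29 gene lists examined, the p53 targets held the most increased genes, and the lists of DNA replication and of the G2 and M phases the most decreased ones. The 3 treated libraries all lay on one side of the 3 untreated ones in 832 of the 837 genes called, against 21.8% of all genes tested. Calling on these libraries favours such genes. The median log2FC over all genes was −0.00. Without untreated replicate 1, 193 genes rose and 272 fell, and without untreated replicate 2, 245 rose and 366 fell. The direction of all 837 genes was kept in each library left out, which their selection on the same libraries nearly fixes. Without oxaliplatin replicate 1, the library poor in mitochondrial reads, 454 rose and 461 fell, and 347 and 330 of these were also called with it.

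Targets of p53 rose as a group. Of 70 tested, 45 rose and 0 fell, beside the 2.09% of all genes that rose, and the list's median log2FC was 1.18, where that of all genes was −0.00. Leaving out oxaliplatin replicate 1 gave 51 called members, and leaving out untreated replicate 1 gave 34. CDKN1A (chr6:36676460-36687337, plus strand) rose 7.36-fold, from 14379, 14812 and 16650.4 normalized counts to 129286, 110428 and 97449 (log2FC 2.88 ± 0.24 (SE), adjusted p 4.80e-05). MDM2 (chr12:68808177-68845544, plus strand), whose product is the ubiquitin ligase that degrades p53, rose from 4906, 4404 and 4130.3 to 16526, 18866 and 21882 (log2FC 2.09 ± 0.20 (SE), adjusted p 9.49e-05). No treated library overlapped the untreated ones for either gene.

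TP53I3 (chr2:24077433-24085861, minus strand), an NADPH-dependent quinone oxidoreductase, went from 577, 792 and 860.1 to 9685, 9295 and 9535 (log2FC 3.68 ± 0.20 (SE), adjusted p 1.46e-05), with a narrow spread among the treated libraries. BTG2, an antiproliferative factor, rose by 1.92 ± 0.19 on the log2 scale. GDF15, a secreted stress cytokine, rose from 13017, 10194 and 11989 to 65398, 40567 and 36675 normalized counts, and its highest value was that of oxaliplatin replicate 1. TP53INP1 rose by 2.07 ± 0.20 and PHLDA3, an inhibitor of AKT, by 1.38 ± 0.25. Among the 25 members not called were E2F7, the only one with a negative value (log2FC −0.28 ± 0.23), and RRM2B, the p53-inducible ribonucleotide reductase subunit. RRM2B held 1629, 883 and 2644 normalized counts untreated and 3116, 2822 and 7868 treated, and although the groups did not overlap, its spread within groups left an adjusted p of 0.0841.

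**Figure D1:**
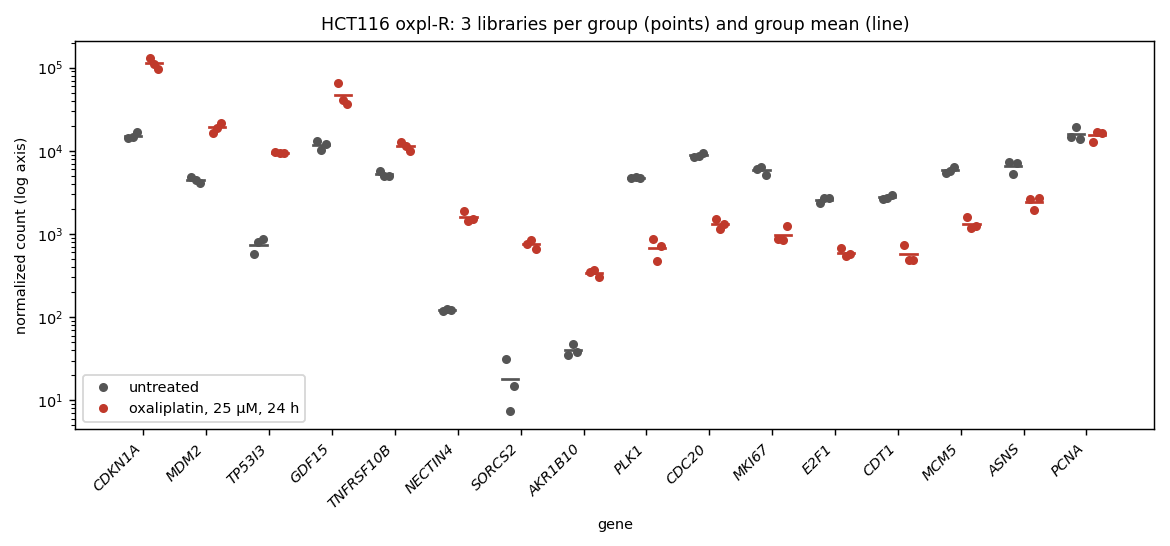
Normalized counts (log axis) of 16 genes in the 3 untreated (gray) and 3 oxaliplatin-treated (red) HCT116 oxpl-R libraries, with points for libraries and lines for group means. Targets of p53 lie higher and cell-cycle genes lower in all treated libraries, CDKN1A moving from 14379, 14812 and 16650.4 to 129286, 110428 and 97449, while PCNA overlaps between the groups.

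Of 16 genes for death receptors and their proximal signalling, 5 rose and 0 fell, beside 2.09% and 2.14% of all genes, and the 5 were the receptors FAS, TNFRSF10A, TNFRSF10B, TNFRSF10C and TNFRSF10D. FAS went from 299, 255 and 515 to 872, 1028 and 1785 normalized counts (log2FC 1.78 ± 0.32 (SE), adjusted p 0.00679). TNFRSF10B, the TRAIL receptor DR5, went from 5715, 4973 and 4971 to 12866, 11331 and 9948 (log2FC 1.12 ± 0.18 (SE), adjusted p 0.00377). The decoy receptors TNFRSF10C and TNFRSF10D, which bind TRAIL without transmitting a death signal, rose 3.55-fold and 2.51-fold. All of the receptors but FAS bind TRAIL, and all 5 also stand on the p53 list.

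In the BCL2 family, 2 of 20 members rose and 1 fell, beside the same shares of all genes, and both that rose are on the p53 list. BAX, the pore-forming effector, rose from 3282, 3793 and 3630.2 to 9029, 7669 and 5655 normalized counts (log2FC 1.06 ± 0.21 (SE), adjusted p 0.0117). BBC3, the BH3-only activator PUMA, rose from 1008, 1109.9 and 1038 to 2588, 2411 and 1462 (log2FC 1.03 ± 0.22 (SE), adjusted p 0.0201). Both were highest in oxaliplatin replicate 1 and neither was called without untreated replicate 1 (adjusted p 0.081 and 0.10), nor BBC3 without untreated replicate 3 (adjusted p 0.054), over ranges of 1.11e-04 to 0.0813 for BAX and 1.87e-04 to 0.0996 for BBC3 in 13 alternatives. BCL2L12 fell from 1873, 2288 and 2217 to 1155, 879 and 820.3 (log2FC −1.16 ± 0.20 (SE), adjusted p 0.00477).

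Genes of the G2 and M phases fell together. All 60 tested members had a negative log2FC, 43 of them fell and 0 rose, beside the 2.14% of all genes that fell, and the median was −1.92. Across the libraries left out, 35 to 58 members were called, and 35 without oxaliplatin replicate 1. PLK1, the mitotic polo-like kinase, went from 4733, 4835 and 4655 normalized counts to 873, 472 and 708 (log2FC −2.79 ± 0.24 (SE), adjusted p 4.80e-05), a 6.92-fold decrease. CDC20 went from 8439.6, 8752 and 9360.2 to 1532, 1145 and 1309.6 (log2FC −2.74 ± 0.20 (SE), adjusted p 4.57e-05). The kinesin KIF20A fell 7.05-fold, and MKI67, the proliferation marker, fell from 5993, 6409.8 and 5113 to 865, 839 and 1249. CCNB2 and CDCA8, whose promoters are printed above, fell 5.49-fold and 5.16-fold. The value nearest to 0 was that of CKS1B (log2FC −0.69 ± 0.21, adjusted p 0.0972). In bulk RNA, fewer cells in these phases and less transcript per cell cannot be told apart. By flow cytometry at the same dose and a later time, the authors reported accumulation of HCT116 oxpl-R cells in G2/M.

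CCNB1, CDK1 and TOP2A varied widely within groups. CCNB1, encoding cyclin B1, held 7042, 4312 and 8255 normalized counts untreated and 1982, 1361 and 2527 treated (log2FC −1.74 ± 0.28 (SE), adjusted p 0.00291). CDK1, its catalytic partner, held 4272, 6772 and 3880.2 and 964, 2027 and 2256 (log2FC −1.51 ± 0.31 (SE), adjusted p 0.0145). TOP2A, topoisomerase II alpha, held 1249, 1391 and 3015 and 521, 204 and 1093, and with the highest value of each group in replicate 3 it was not called (log2FC −1.64 ± 0.50, adjusted p 0.111).

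DNA replication and S phase genes also fell. Of 59 tested, 45 fell and 0 rose, beside 2.14% and 2.09% of all genes. All 59 had a negative log2FC, and the median was −1.43. The number was 45 without oxaliplatin replicate 1 and 40 to 53 across the libraries left out. E2F1 went from 2350, 2699.7 and 2695 normalized counts to 671, 538 and 568 (log2FC −2.12 ± 0.19 (SE), adjusted p 6.87e-05), and CDT1 from 2616, 2695 and 2956 to 743, 482 and 486 (log2FC −2.27 ± 0.22 (SE), adjusted p 8.46e-05). Subunits of the MCM helicase fell to a similar extent: MCM4 by 4.19-fold and MCM5 by 4.35-fold, while MCM10, a separate factor that helps to activate the helicase, fell 5.33-fold. PCNA, the sliding clamp, which is also a p53 target, held 14461, 19281 and 13921 normalized counts untreated and 12738, 16829.9 and 16372 treated (log2FC −0.05 ± 0.21, adjusted p 0.924), the value nearest to 0 on the list.

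Of 27 CDK inhibitors, cyclins and E2F and RB family genes, 7 fell and 1 rose, beside 2.14% and 2.09% of all genes. E2F1, E2F2, E2F8 and CCNE2 are counted on the S phase list as well, and CDKN3, RBL1 and CDKN2C are the other 3 that fell. The gene that rose was CDKN1A. E2F2 and E2F8 fell 3.21-fold and 2.99-fold, whereas E2F7, an atypical repressor of the same family and a p53 target, was not called. In the MYC network of 13 genes, MXD4 rose (log2FC 1.01 ± 0.19 (SE), adjusted p 0.00986) and MXD3 fell (log2FC −1.56 ± 0.22 (SE), adjusted p 0.00101), both encoding MAX-binding antagonists of MYC. MYC itself held 9932, 10534 and 9587 normalized counts untreated and 8529, 10227 and 7793 treated (adjusted p 0.657).

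The promoters of all tested members of the decreased lists, called or not, were searched for the motifs that DREAM and E2F factors use. RefSeq held a 300-base promoter (250 bases before to 50 after the start) for 54 of the 60 G2 and M phase genes, 48 of the 59 S phase genes and 27305 genes in all. A CHR was found in 74.1% of the G2 and M phase promoters, in 4.17% of the S phase promoters and in 16.6% of all promoters. An E2F motif was found in 45.8% of the S phase promoters, in 5.56% of the G2 and M phase promoters and in 2.79% of all. A CCAAT box occurred in 72.2%, 52.1% and 35.7% of the same 3 sets. The CHR matches lay close to the start, with 66.7% of the G2 and M phase promoters holding one that began at most 60 bases before it or downstream, where 5.46% of all promoters did. Among the 277 promoters of decreased genes that are on neither list, 25.3% held a CHR and 11.2% an E2F motif. Among the 313 promoters of increased genes, these shares were 8.63% and 3.51%. The shares of the lists follow from which genes were put on them and would be the same without a response to oxaliplatin. Called and uncalled members were not compared. These matches are letters in a window and do not show that a factor was bound.

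Among DNA repair and checkpoint genes, decreases prevailed in the homologous recombination and Fanconi anemia pathways. Of 38 tested, 10 fell and 0 rose, beside 2.14% and 2.09% of all genes, with a median log2FC of −0.72. Leaving out single libraries gave 8 to 16 decreased members, 8 without untreated replicate 1 or oxaliplatin replicate 1, and 16 without oxaliplatin replicate 3. BRCA1, which is also on the S phase list, went from 311, 310 and 513 normalized counts to 87.3, 79.6 and 123 (log2FC −1.97 ± 0.29 (SE), adjusted p 0.00162). FANCD2 and EME1 fell 3.11-fold and 3.05-fold. RAD52 had the highest value of the list, 0.58 ± 0.22, and was not called. In nucleotide excision repair, 1 of 24 genes rose and 0 fell, too few to set the list apart from all genes. That gene was DDB2, the p53-induced damage sensor, which went from 2349, 2359 and 2300.4 to 5136, 4284 and 5630 (log2FC 1.10 ± 0.18 (SE), adjusted p 0.00384). ERCC1, a subunit of the 5′ incision nuclease, held 2820.5, 2699 and 2826 untreated and 5054, 3881 and 4624 treated and narrowly missed the threshold (adjusted p 0.0509).

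Of 14 translesion synthesis genes, POLH rose and POLQ, POLD3 and PRIMPOL fell, where 2.09% of all genes rose and 2.14% fell. POLH encodes polymerase eta, which bypasses platinum crosslinks and is a p53 target, and it went from 1139, 1222 and 1001 to 2110, 2231 and 2303 normalized counts (log2FC 0.98 ± 0.18 (SE), adjusted p 0.00702). POLH was not called without untreated replicate 1, nor POLQ without oxaliplatin replicate 1. PRIMPOL was not called in the second table (adjusted p 0.11), nor without any 1 of the 3 untreated libraries or without oxaliplatin replicate 1 or 2 (adjusted p 0.052 to 0.11). POLD3 is also on the S phase list. Among 22 checkpoint genes, PPM1D, the phosphatase that ends checkpoint signalling and a p53 target, rose 2.53-fold, and CLSPN, CDC25A, MDC1 and RFC2 fell, of which CLSPN and RFC2 are also on the S phase list and MDC1 was not called without untreated replicate 1. Leaving out single libraries gave 3 to 7 decreased checkpoint genes, 3 without untreated replicate 1 or oxaliplatin replicate 1, and 7 without oxaliplatin replicate 3. The apical kinases ATM and ATR held 229.8, 156 and 449 and 306, 301 and 795 normalized counts untreated and 248, 152 and 359.6 and 350.1, 171 and 563 treated, with overlapping groups and replicate 3 highest in each group. CHEK1 was also not called (log2FC −0.99 ± 0.38, adjusted p 0.200).

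The integrated stress response list moved in both directions. Of 30 genes, 12 fell and 3 rose, beside 2.14% and 2.09% of all genes, with a median log2FC of −0.58. Those that fell include ATF4, the central factor of this response, and genes of amino acid supply. ASNS, asparagine synthetase, went from 7311, 5295 and 7189 to 2622, 1918 and 2719 normalized counts (log2FC −1.45 ± 0.21 (SE), adjusted p 0.00165). CHAC1, a glutathione-degrading enzyme, fell 3.27-fold, SLC7A11, the cystine transporter, 3.40-fold and PCK2, the mitochondrial form of phosphoenolpyruvate carboxykinase, 2.68-fold. Leaving out untreated replicate 1 or untreated replicate 2 lowered the number of decreased members to 6. ATF3, SESN2 and GADD45A rose, and SESN2 and GADD45A are also on the p53 list. ATF3, which belongs to the immediate early genes as well, went from 768, 756 and 549.8 to 1777, 1841 and 1283 (log2FC 1.24 ± 0.22 (SE), adjusted p 0.00591). Besides it, DUSP5 was the only other of 28 immediate early genes that rose, and none fell.

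The replication-dependent histones, whose transcripts are made in S phase and lack a poly(A) tail, gave no uniform picture. Of 47 tested, 5 rose and 1 fell, beside 2.09% and 2.14% of all genes. The median log2FC was −0.73, with many members near 0 counts. It was −0.11 when groups with at most 3 counts per library were taken at that floor. H2BC5 rose from 247, 287 and 267 to 566, 1364 and 888 normalized counts (log2FC 1.81 ± 0.30 (SE), adjusted p 0.00328), and H1-2 by 0.92 ± 0.18. Histone genes are close copies of each other, so their reads may have been shared, and the number that rose was 1 without untreated replicate 1, 3 without untreated replicate 2, 2 without untreated replicate 3 and 3 in the second table.

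Other stress, metabolic and resistance lists moved little. No gene was called among 48 of nucleolar ribosome biogenesis, 67 nuclear OXPHOS subunits, 26 hypoxia-inducible genes, 25 heat shock proteins, 24 NF-κB targets, 13 mitochondrially encoded genes and 6 metallothioneins. Together these 7 lists held 209 tested genes, of which 23 (11%) had an unadjusted p under 0.05, none of them mitochondrially encoded, beside 3187 of all 19780 genes (16.1%). DESeq2 called 1 of the NF-κB targets, 2 hypoxia-inducible genes, 1 metallothionein and 2 heat shock proteins, and none on the other lists. Of 76 cytosolic ribosomal proteins, RPL10A alone fell (log2FC −0.97 ± 0.21 (SE), adjusted p 0.0194), and not without untreated replicate 1 or 2. Of 26 NRF2 targets, AKR1B10, an aldo-keto reductase, rose 8.47-fold, from 34.8, 47 and 37.7 to 344, 368 and 306 normalized counts (log2FC 3.08 ± 0.26 (SE), adjusted p 4.80e-05), and SLC7A11 fell. Of 38 interferon-stimulated genes, ISG15 rose and OAS3 and CMPK2 fell, OAS3 from 1227, 1292 and 1146 to 511, 463 and 494 (log2FC −1.32 ± 0.19 (SE), adjusted p 0.00161). Of 27 cholesterol genes, TM7SF2 rose and EBP and INSIG1 fell. Of 17 WNT targets EPHB3 rose, and of 20 colorectal epithelial markers KRT19 rose. Since 2.09% of all genes rose and 2.14% fell, so few calls did not set these lists apart. Of the genes named here, ISG15, CMPK2, EBP, INSIG1, EPHB3, KRT19 and DUSP5 lost the call without untreated replicate 1 (adjusted p 0.061 to 0.23). CMPK2, EPHB3, KRT19 and DUSP5 also lost it without each of the other untreated libraries. EBP and INSIG1 lost it without untreated replicate 2 and ISG15 without untreated replicate 3. CMPK2 and EPHB3 were not called without oxaliplatin replicate 1, nor EPHB3 and EBP without oxaliplatin replicate 2. EPHB3 was not called in the second table, nor INSIG1 with genes kept by filterByExpr.

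Transporters and factors linked to platinum handling were mostly not called, as were most genes, of which 2.09% rose and 2.14% fell. Of 19 tested, SLC31A2, encoding the copper transporter CTR2, rose from 406, 407 and 422 to 734, 782 and 953 normalized counts (log2FC 1.00 ± 0.20 (SE), adjusted p 0.0145), and not without untreated replicate 1 or 2. SLC31A1, the copper importer CTR1, held 1272, 1402 and 1169 untreated and 994, 1058 and 1251 treated (log2FC −0.22 ± 0.18, adjusted p 0.585). The copper exporters ATP7A and ATP7B had log2FC values of 0.42 ± 0.34 and 0.29 ± 0.22, and the efflux pump ABCC2 0.23 ± 0.20. SLFN11, a factor that sensitizes cells to DNA-damaging drugs, had 0 counts in all 6 libraries, which allows up to 3 counts in each and covers counting error only.

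The 10 largest increases, among called genes without overlap between the groups and with at least 100 normalized counts in the higher one, included those of PDE4C, SORCS2, CBS, NECTIN4, TP53I3, HMCN2, KLHL30, ACTA2 and ACHE. SORCS2 (chr4:7192538-7742836, plus strand), a sorting receptor of the VPS10 family, went from 31.3, 7.35 and 15 to 757, 837 and 657 normalized counts (log2FC 5.40 ± 0.43 (SE), adjusted p 9.29e-05). NECTIN4 (chr1:161070998-161089558, minus strand), a cell adhesion molecule, went from 119.8, 127 and 122 to 1875, 1447 and 1519.7 (log2FC 3.71 ± 0.22 (SE), adjusted p 8.59e-06), the lowest adjusted p of all genes. CBS (chr21:43053191-43076943, minus strand), cystathionine beta-synthase, went from 12, 5.42 and 5.95 to 191, 161 and 197 (log2FC 4.55 ± 0.37 (SE), adjusted p 4.80e-05), and GRCh38 holds a near-identical copy of this gene that may share its reads. PDE4C, a cAMP phosphodiesterase, held 0, 0 and 7.94 and 161, 106 and 219.9, with a log2FC of 5.87 ± 0.75 in the count table and 3.33 (adjusted p 0.13) in the second table, the only alternative in which it was not called. ACTA2, smooth muscle actin, held 171, 108 and 137 and 555, 2666 and 478, so that oxaliplatin replicate 2 stood above the others, and its log2FC was 1.90 without it. ACHE, HMCN2 and KLHL30 rose 8.86-fold, 12.5-fold and 9.86-fold.

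By the same rule, the 10 largest decreases were those of HPCA, SNAP25, RN7SK, RNA5-8SN2, CHN1, FAM72B, KIF20A, PLK1, CDC20 and PIF1. HPCA and SNAP25, genes of neurons, rested on untreated replicate 3. HPCA held 7.62, 11.7 and 475 normalized counts untreated and 2.82, 0 and 4.4 treated, and without that library its log2FC was −2.0 (adjusted p 0.47). SNAP25 held 31.3, 45 and 727 and 0.890, 7.13 and 12.5, and without it −2.49 (adjusted p 0.13). CHN1 was likewise highest there, with 73, 47.9 and 269.9 against 16, 11.1 and 16.5, and its log2FC was −2.07 without it. RN7SK and RNA5-8SN2 are RNAs without a poly(A) tail, whose level can follow the library preparation. RN7SK held 1221, 1086 and 737 untreated and 45.1, 0 and 162 treated, and was not called by DESeq2 (adjusted p 0.16), in the fit of all 24 samples (0.076), with genes kept by filterByExpr (0.075) or without oxaliplatin replicate 1 (0.12). Over the alternatives, adjusted p ran from 4.05e-17 to 0.157 for RN7SK, from 2.97e-13 to 0.471 for HPCA and from 3.27e-06 to 0.126 for SNAP25. RN7SL1 and RN7SL2, of the same class, held 690.4, 324 and 285 and 974, 535 and 274 untreated and 112, 0 and 208 and 223, 4.03 and 156 treated, and the part of library composition in these values was not tested. FAM72B, 1 of several near-identical copies whose reads may be shared, fell 7.80-fold, and PIF1, a DNA helicase, fell 6.46-fold from 608, 710.4 and 511 to 119, 92.7 and 70.4.

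The response was next set beside that of E1A-expressing HCT116 oxpl-R cells, which gives the same drug in the same line in 6 other libraries, with E1A present in both groups. There 223 genes rose (1.09%) and 191 fell (0.938%) of 20366 tested. Of the 413 genes that rose without E1A, 412 had the same sign in these libraries, and 204 rose in both, which is 49.4% of the first and 91.5% of the second list. Of the 424 that fell, 419 had the same sign and 135 fell in both, 31.8% and 70.7% of the lists. Among p53 targets 42 of 70 rose, with a median of 1.15, among G2 and M phase genes 36 of 60 fell, with a median of −1.36, and among S phase genes 15 of 59 fell, with a median of −0.64. E2F1 had a log2FC of −0.51 in the E1A-expressing cells (adjusted p 0.255) and −2.12 without E1A, and the difference between these 2 values was not tested. Over the genes of the count table, 357 were called in the E1A-expressing cells, 1120 without replicate 3 of E1A alone and 199 without replicate 2 of E1A and oxaliplatin.

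Parental HCT116 cells, given the same dose for the same time, had more genes called in the fit without a replicate block. Of 19023 tested, 2502 rose (13.2%) and 1902 fell (10.0%). Of the 413 genes that rose in HCT116 oxpl-R, 387 had the same sign in HCT116 and 277 rose in both, 67.1% and 11.1% of the lists. Of the 424 that fell, 422 were tested in HCT116, 334 had the same sign, 161 fell in both and 20 rose in HCT116. The number of calls in HCT116 depended on single libraries: over the genes of the count table it was 3759, and 1699 without untreated replicate 1, 1575 without untreated replicate 2 and 6997 without oxaliplatin replicate 3. Over the same genes, 692 were called in HCT116 oxpl-R. With the replicate number as a block, 2000 were called in HCT116 and 1762 in HCT116 oxpl-R. The gap in calls between the lines thus depended on the fit. In HCT116, 37 of 70 p53 targets rose and 2 fell, 26 of 60 G2 and M phase genes fell, and 29 of 59 S phase genes fell while 4 rose. The medians of the 3 lists were 0.79, −0.73 and −0.53.

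**Figure D2:**
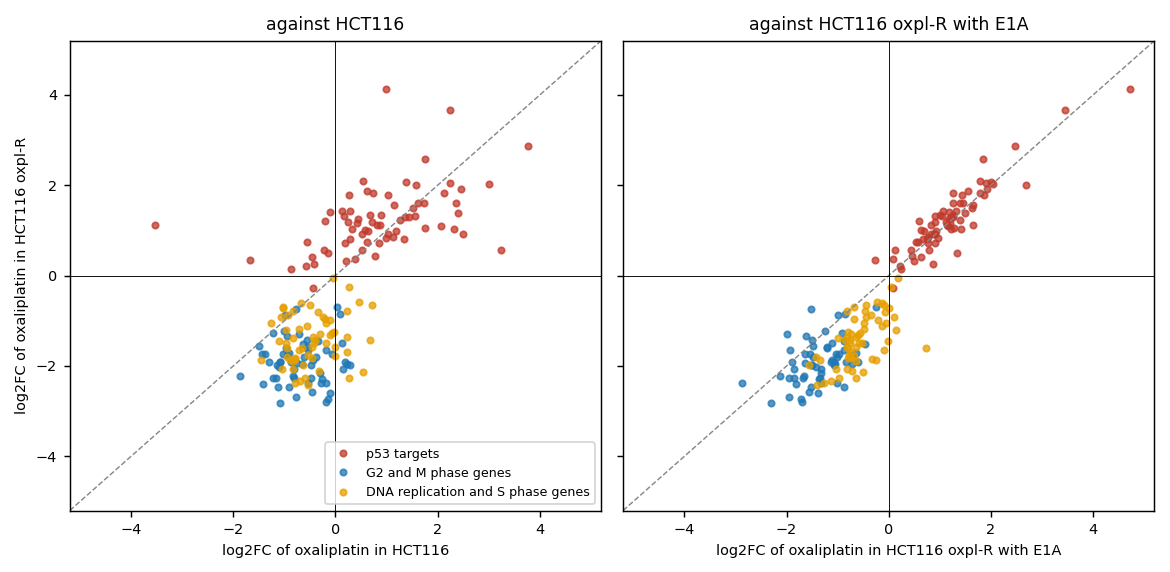
Log2FC of oxaliplatin in HCT116 oxpl-R cells (vertical axis) against the log2FC in parental HCT116 cells (left, horizontal axis) and in E1A-expressing HCT116 oxpl-R cells (right), for p53 targets (red), G2 and M phase genes (blue) and S phase genes (yellow), with a dashed line of equality. Most cell-cycle genes lie below the line in the left panel, where their medians are −0.73 and −0.53 against −1.92 and −1.43 in HCT116 oxpl-R.

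The difference between the 2 responses was tested as an interaction over the 12 libraries without doxycycline. Of 21018 genes, 159 had a higher log2FC in HCT116 oxpl-R than in HCT116 (0.756%) and 390 a lower one (1.86%). Cell-cycle genes were among the latter. Of 60 G2 and M phase genes, 18 responded more negatively in HCT116 oxpl-R and 0 more positively, and of 59 S phase genes 20 and 0. Across the libraries left out these were 15 to 25 and 9 to 28, the fewest without HCT116 untreated replicate 1. Among p53 targets 9 of 70 responded more strongly and 2 less, with 5 to 19 and 0 to 6 across the libraries left out. Over the genes of the count table, 124 responses were higher and 313 lower, and between 26 (without HCT116 untreated replicate 1 or 2) and 752 (without HCT116 oxaliplatin replicate 3) and between 101 (without HCT116 untreated replicate 2) and 860 (without oxaliplatin replicate 1 of HCT116 oxpl-R) when a library was left out.

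The 10 genes with the lowest adjusted p for this difference were E2F1, ASF1B, CDC20, CDT1, CDCA8, PLK1, PKMYT1, KIF18B, FOXM1 and C1QL1, and all 10 responded more negatively in HCT116 oxpl-R. On a scale common to the 12 libraries, mean normalized counts of E2F1 went from 2646 ± 206 to 607 ± 71.5 in HCT116 oxpl-R and from 2413 ± 267 to 3477 ± 239.8 in HCT116 (SD, n = 3 each). The difference of its log2FC values was −2.65 ± 0.23 (SE), adjusted p 1.79e-05. PLK1 went from 4859 ± 92.6 to 702 ± 206 in HCT116 oxpl-R and from 6946 ± 733 to 6045 ± 318 in HCT116, a difference of −2.59 ± 0.27 (SE), adjusted p 6.15e-05. CDC20 went from 9071 ± 479.8 to 1362 ± 199 in HCT116 oxpl-R and from 12637 ± 1664 to 11349.7 ± 846 in HCT116, a difference of −2.58 ± 0.24 (SE), adjusted p 1.83e-05. FOXM1, the activator of mitotic genes, went from 3727 ± 158 to 987 ± 114 in HCT116 oxpl-R and from 5413 ± 729 to 6053 ± 422 in HCT116. For E2F1, PLK1, CDC20 and FOXM1 the treated HCT116 oxpl-R group thus lay below its control, while in HCT116 the log2FC values were 0.54, −0.18, −0.14 and 0.18. All 10 genes stayed below an adjusted p of 0.05 in each of the 19 alternatives, which their choice by adjusted p on the same libraries favours.

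Of the 70 p53 targets, 9 responded more strongly in HCT116 oxpl-R and 2 less, beside 0.756% and 1.86% of all genes. The 2 weaker responses are too few to set the list apart from all genes. MDM2 went from 4592 ± 403 to 19566 ± 2752 in HCT116 oxpl-R and from 2815 ± 118 to 4044 ± 1209.6 in HCT116, with a difference of 1.57 ± 0.28 (SE), adjusted p 0.00559. TP53I3 also responded more strongly in HCT116 oxpl-R, by 1.48 ± 0.30 (SE), adjusted p 0.0127. BBC3 went from 1078 ± 53.5 to 2207 ± 620.3 in HCT116 oxpl-R and from 645 ± 2.07 to 3171 ± 250.3 in HCT116, and its response was weaker in HCT116 oxpl-R (difference −1.26 ± 0.27 (SE), adjusted p 0.0192). That call held in 16 of the 19 alternatives, and the highest adjusted p was 0.0684, without HCT116 untreated replicate 2. The response of DDB2 was weaker as well (difference −0.95 ± 0.23 (SE), adjusted p 0.0358), and that call was lost in 10 of the 19 alternatives. CDKN1A went from 15660.4 ± 1236 to 115183 ± 16407 in HCT116 oxpl-R and from 4020.1 ± 182 to 54527 ± 6609 in HCT116, and its difference of −0.88 ± 0.27 (SE), adjusted p 0.0887 did not pass the threshold. TNFRSF10D responded in HCT116 oxpl-R more than in HCT116, by 1.19 ± 0.21 (SE), adjusted p 0.00519. Outside the p53 list, AKR1B10 rose in HCT116 oxpl-R while its log2FC in HCT116 was 0.47, a difference of 2.63 ± 0.45 (SE), adjusted p 0.00427.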

How the data were processed

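RNA was sequenced as paired-end mRNA libraries of 24 cultures, 3 per group. Per the labels and methods, the authors trimmed reads with Trimmomatic, quantified transcripts with Salmon 1.6.0 (GRCh38, GENCODE) and used tximport to obtain gene totals. The deposited values are estimated counts, rounded here to whole numbers. The count table ends at SETP6 (33113 genes). The second table (37967 genes, to TSC22D3) is named TPM. Its columns sum to 28004358 to 42613350 over the 24 libraries and were therefore taken for length-scaled estimated counts. On this reading, the second table was used for the 4854 genes after SETP6 and fitted and adjusted as a whole. Genes later in the alphabet than TSC22D3 were not analysed.

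Each comparison was fitted on its own libraries, with genes of any count, by edgeR 4.0.16 (R 4.3.3; TMM, quasi-likelihood, Benjamini-Hochberg, adjusted p below 0.05). Tested on simulated data, this fit made more false calls than the nominal rate when dispersions varied gene by gene, though not with trended dispersions, so that part of the calls may be false. Normalized counts were scaled to the mean of the 6 libraries, and SE is log2FC over the root of F. DESeq2 1.42.0, filterByExpr, RLE scaling, a common fit and libraries left out were the alternatives. Depth limits genes of few counts, and statements from 0 counts cover counting error only. The named genes were, per direction, the 10 largest called changes without overlap, above 1 on the log2 scale and with at least 100 normalized counts in the higher group, up to 4 called members of each list with its extremes, key genes of the p53, cycle, repair and platinum pathways, and the 10 lowest adjusted p for the difference between lines. Members and lists were chosen with earlier results of these data known. A few other genes were named after their values were seen. Promoters come from RefSeq (GRCh38.p14) and gene spans from GENCODE 44. Some of the named genes are not reported here.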

Additional observations from a re-analysis of the deposited data

Results flagged for a closer look

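The 10 genes named for the difference between the lines were marked because their response to oxaliplatin differed between HCT116 oxpl-R and HCT116 by the interaction term of edgeR's quasi-likelihood fit. The difference of log2FC values (HCT116 oxpl-R minus HCT116) was −2.65 for E2F1, −2.51 for CDT1, which loads the replicative helicase, and −2.46 for ASF1B, a histone chaperone of replicating cells. Among mitotic regulators it was −2.58 for CDC20, −2.59 for PLK1, −2.08 for FOXM1, −2.16 for CDCA8, −2.13 for the kinesin KIF18B and −2.37 for PKMYT1, a kinase that inhibits CDK1. It was −2.99 for C1QL1, a secreted protein of the C1q family. In HCT116 itself the log2FC of C1QL1 was 1.97 and that of PKMYT1 0.58, against −1.04 and −1.80 in HCT116 oxpl-R. The adjusted p of these differences was at most 0.000839 over the 19 alternatives, which the choice of these genes by adjusted p on the same libraries favours. Groups of 3 libraries were not tested for single outlying libraries.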

How the results depend on the processing

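Over the genes of the count table, 339 rose and 353 fell in HCT116 oxpl-R. DESeq2 gave 531 and 557, a fit of all 24 samples 603 and 585, and leaving out single libraries 160 to 476 and 229 to 537. Of the genes after SETP6, 74 rose and 71 fell. Leaving out single libraries gave 33 to 81 and 43 to 75, and for the decreases DESeq2 gave 113 and the fit of all samples 114. With only genes kept by filterByExpr, 428 rose and 397 fell over both tables, and these included 388 (93.9%) and 360 (84.9%) of the main calls. In HCT116, 3759 genes were called (1575 to 6997 without single libraries), and in E1A-expressing HCT116 oxpl-R cells 357 (199 to 1120), with 593 by DESeq2 and 545 in the fit of all samples. Between the lines, 124 responses were higher and 313 lower. DESeq2 gave 432 and 871, filterByExpr 192 and 656, and leaving out single libraries 26 to 752 and 101 to 860. The replicate numbers are shared between groups, but the labels do not state a pairing, and the main fit did not use one. Deviations of same-numbered untreated and treated libraries correlated at 0.084, 0.458 and 0.540. Those of differently numbered libraries correlated at −0.512 to 0.194, so a spread shared by replicate number may have been left in the main fit. With the replicate number as a block, 804 genes rose and 958 fell in HCT116 oxpl-R, 124 and 144 after SETP6, and 2000 were called in HCT116 and 1766 with E1A. The difference in mitochondrial share (−1.05 percentage points) ran from −4.82 to 4.35 without single libraries and changed sign, to 4.35, without oxaliplatin replicate 1. Of the named genes' values, 1659 stayed on their side of the threshold, 67 lost the call and 49 gained it. No called value changed sign, which selection on the same libraries nearly fixes, whereas 23 values of 10 genes that were not called, ATM and ATR among them, did. In all of these, the cause was not tested.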

Other observations

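Most genes that moved were on none of the lists, namely 354 of the 413 that rose and 299 of the 424 that fell. The following were chosen after their values were seen, as genes outside the lists with low adjusted p. HMCN2, an extracellular matrix protein, went from 17.4, 19.9 and 28.8 to 290, 258 and 281 normalized counts. ACHE, acetylcholinesterase, went from 41.4, 31.6 and 40.7 to 378, 290.1 and 339.8, and RINL, a guanine nucleotide exchange factor of RAB proteins, from 706, 728 and 797 to 3418, 3069 and 2896 (log2FC 2.07 ± 0.18). GRIN2C, an NMDA receptor subunit, rose from 96.9, 124 and 92.3 to 819, 752 and 573 (log2FC 2.77 ± 0.25). Those that fell include the mitotic kinesins KIF18B, from 2257, 2473 and 2131 to 532, 468 and 423, and KIFC1, from 2620.1, 2704 and 2453 to 633, 450.2 and 566, and FAM83D, a spindle protein, from 3684, 3896 and 3334 to 938, 978 and 1050.1. In each of these 7 genes the treated and untreated libraries did not overlap, which their choice by adjusted p favours. The same held for 832 of the 837 genes called and 21.8% of all genes tested.

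The response was also set against gene length, since platinum adducts are known to block RNA polymerase. Log2FC values were taken over 9867 protein-coding genes by their span on GRCh38 (GENCODE 44). In HCT116 oxpl-R the median was 0.04 for 1934 genes under 10 kb and −0.07 for 1968 genes of at least 100 kb, while in HCT116 it was 0.47 and −0.44. Per library, the median log2(CPM + 1) of the long genes minus that of the short ones was −0.63, −0.80 and −0.69 in untreated HCT116 oxpl-R and −1.04, −0.93 and −0.47 after oxaliplatin, so the groups overlapped (exact permutation test, two-sided, p = 0.60). In HCT116 it was −0.32, −0.23 and −0.46 untreated and −1.63, −1.44 and −0.61 treated (p = 0.10, exact permutation, the lowest that 3 against 3 allow). In E1A-expressing HCT116 oxpl-R cells it was −0.83, −0.75 and −0.56 without and −0.84, −0.86 and −1.27 with oxaliplatin, without overlap (p = 0.10, exact permutation). The difference between HCT116 oxpl-R without E1A and HCT116, 0.78, did not pass an exact permutation test within lines (p = 0.18), and replicate 3 was the highest treated library in both of these. This measure was chosen after the values had been seen.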
